A study of Bos taurus with 10 samples.

Results

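The nuclear genes of the respiratory chain encode most subunits of the 5 complexes of the inner mitochondrial membrane, and they were examined in single bovine early blastocysts with and without *SOX2*, a transcription factor of pluripotent cells. Members were taken by symbol from the table of the authors: *NDUFA*, *NDUFB*, *NDUFC*, *NDUFS* and *NDUFV* genes, *SDHA* to *SDHD*, *UQCR* genes, *COX4* to *COX8* genes, *ATP5* genes and *CYC1*. A mean of at least 1 normalized read count over the 10 embryos was required. The rule found 93 of the 20112 genes, and 0 matching symbols fell below the minimum. By role, 37 encode subunits of complex I, 8 complex I assembly factors, 4 complex II, 9 complex III, 16 complex IV and 19 complex V or its regulators. *COX6C* and the subunits encoded by mitochondrial DNA are not analysed here.

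All 10 embryos were labelled as early blastocysts of 7.0 days after fertilization, and all were injected as zygotes with mRNA of BE3, a cytosine base editor. The methods of the study give a slightly later time of collection than the labels. The 5 WT embryos (nc1 to nc5) received that mRNA alone, so they carry the editor but no guide. The 5 *SOX2* KO embryos (ko1 to ko5) also received sgRNAs that let BE3 write premature stop codons into *SOX2*. Each library is 1 whole embryo with all its lineages, prepared by Smart-seq2 from polyadenylated RNA. The study genotyped each sequenced blastocyst from part of its cDNA. The edited bases cannot be seen in a table of counts, and *SOX2* reads were present in every embryo, at 56.5 to 93.4 normalized read counts in WT and 26.4 to 82.1 in *SOX2* KO.

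Electrons from NADH enter the chain at complex I and those from succinate at complex II. They pass through ubiquinone, complex III and cytochrome c to complex IV, which reduces oxygen. Complexes I, III and IV pump protons, and complex V, the ATP synthase, uses the gradient to make ATP. Mammalian blastocysts raise their oxygen use as the trophectoderm begins to pump fluid into the cavity, and the trophectoderm is the more active of the first lineages in this respect.

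A normalized read count is the number of reads of a gene divided by the size factor of the embryo, which corrects for sequencing depth. The WT libraries held 2223670 to 5134855 recovered reads and the *SOX2* KO libraries 2578284 to 4337342 (two-sided exact permutation test, p = 0.349). Reads of *RN18S1*, an 18S ribosomal RNA gene, made up 26.4% to 37.0% of the WT libraries and 32.5% to 45.0% of the *SOX2* KO libraries (p = 0.0635 by the same exact permutation test). At least 1 read was found for 15919 to 18092 genes per WT embryo and for more genes, 17987 to 19813, per *SOX2* KO embryo (exact permutation p = 0.0159). Calls of markers here are by limma at an adjusted p of at most 0.05, which called 3.2% of all genes lower and 10.4% higher. Among genes averaging at least 100 normalized read counts it called 8.16% lower and 6.62% higher. Markers of the epiblast, the pluripotent lineage, summed to 3382 to 4232 normalized read counts in WT and 2042 to 2583 in *SOX2* KO, with 8 of 14 markers lower. Trophectoderm markers summed to 28284 to 41624 and 39641 to 53928, with 4 of 14 higher and 1 lower. The largest terms of this sum were 2 keratins, *KRT8* (means of 17496 in WT and 22437 in *SOX2* KO, not called) and *KRT18* (9100 and 15124, higher). *KRT19*, *CLDN4* and *ASCL2* were also higher, and *TFAP2C* was lower. *CDX2*, *GATA2*, *GATA3*, *TEAD4*, *TFAP2A*, *DAB2*, *ELF5* and *PTGS2* were not called. Primitive endoderm markers summed to 2598 to 3565 and 2609 to 3072, with 2 of 11 higher and 4 lower. Markers of cumulus or granulosa cells summed to 32.6 to 84.5 and 57.0 to 98.0, and 0 of 7 passed by limma, DESeq2 or edgeR, with 1 higher at an unadjusted limma p under 0.05. Single markers at 0 were *NANOG* in ko2, *TDGF1* in nc1, *FOXA2* in nc2 and *ASCL2* in nc2, nc3 and nc4, beside the cumulus or granulosa markers *HAS2* and *AMH* in embryos of both groups, *TNFAIP6* in WT embryos and *INHBA* in ko3. What part these shifts have in the values that follow was not tested, and in whole embryos fewer cells of a type and less RNA per cell cannot be told apart.

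Few respiratory chain genes were separable between WT and *SOX2* KO embryos. The groups overlapped for 93 of the 93 members, and only the assembly factor *NDUFAF1* passed the test, being lower in *SOX2* KO. The test was limma on log2(normalized read count + 1) with Benjamini-Hochberg adjustment over 20056 genes, and a gene passed at an adjusted p of at most 0.05. Of all genes tested, 3.2% passed lower and 10.4% higher in *SOX2* KO. Among the 4548 genes averaging at least 100, a level that 82 of the 93 members reach, 8.16% were lower and 6.62% higher. Of the 93 members, 1 was lower and 0 were higher. That member, *NDUFAF1*, averaged 81.0, and of the 82 members averaging at least 100, 0 were called. At an unadjusted p under 0.05, 8 of the 93 members (8.6%) were lower and 0 higher. Of the 82, 7 (8.54%) were lower, against 19.9% of the genes averaging at least 100. When a 2-fold change was also required, 1.16% of all genes were lower and 8.93% higher, and 0 of the members passed in either direction by limma, by DESeq2 or by the quasi-likelihood test of edgeR. Groups without overlap were found for 2.76% of all genes in the lower and 6.41% in the higher direction, and for 0 members. Among the 4548 genes averaging at least 100, 308 were lower and 172 higher without overlap.

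The members leaned slightly to the lower side, as did well expressed genes. Their median log2 fold change was -0.16, with 74 members below 0 and 19 above. Single embryos moved this median, to -0.25 without ko4, -0.09 without ko1 and -0.10 without nc2 or without nc4, and with the *RN18S1* share as a covariate it was -0.01. The median over all genes tested was 0.25, over genes averaging at least 10 it was -0.04, and over genes averaging at least 100 it was -0.11. In the last class 62.0% of genes lay below 0, against 82.9% of the 82 members in it and 79.6% of all 93 members. The 95% interval of the fold change, from limma and for each gene on its own, lay wholly within 2-fold for 85 of the 93 members and within 1.5-fold for 50. For genes with few reads, the added 1 makes these fold changes smaller than the true ones.

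**Figure D1:**
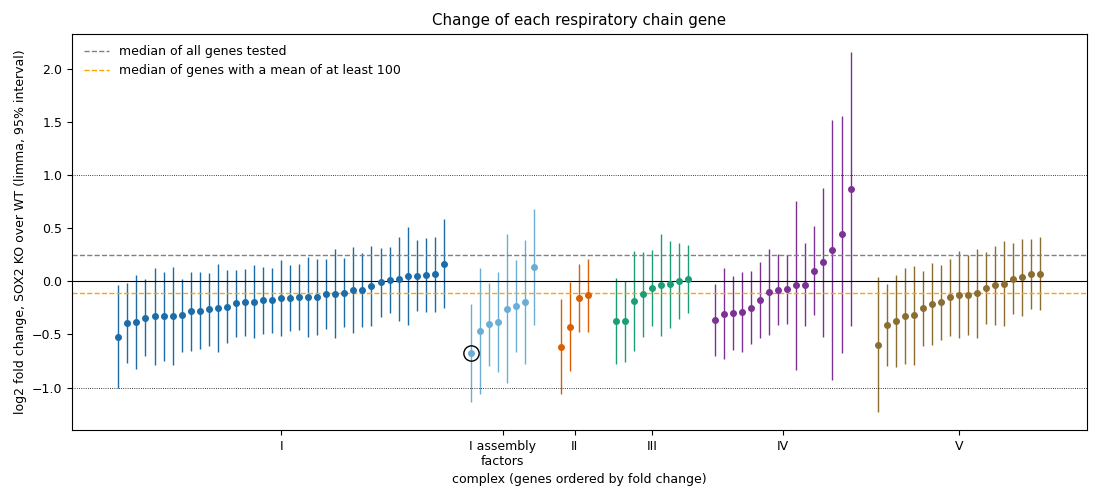
Log2 fold change of each member, *SOX2* KO over WT, with its 95% interval from limma (vertical axis), ordered within each complex (horizontal axis, colours). Dashed lines are the medians of all genes tested (0.25, grey) and of genes averaging at least 100 (-0.11, orange), dotted lines mark 2-fold, and the circle marks *NDUFAF1*, the 1 member with an adjusted p of at most 0.05; the widest intervals belong to complex IV isoforms with few reads.

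The 37 subunits of complex I had a median log2 fold change of -0.16, with 30 below 0 and 7 above. It was -0.10 without nc4 and -0.25 without ko4. The 95% intervals lay within 2-fold for 36 of the 37. The median was -0.24 for the 7 core subunits, which carry the flavin and iron-sulphur clusters, -0.18 for the 9 accessory subunits of the matrix arm and -0.14 for the 21 of the membrane arm. None of the genes of complexes I, III, IV and V passed at the adjusted threshold by limma, DESeq2 or edgeR. At an unadjusted limma p under 0.05, 2 genes of complex I, 0 of III, 1 of IV and 1 of V were lower.

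*NDUFA2*, an accessory subunit of the matrix arm, had the lowest fold change of complex I. It stood at 182, 176, 197, 176 and 102 normalized read counts in WT and at 75.7, 106, 140, 183 and 89.9 in *SOX2* KO. The groups overlapped only through nc5 and ko4. The log2 fold change was -0.52 (SE 0.23, limma adjusted p = 0.127). *NDUFB2*, a subunit of the membrane arm, had the highest fold change of complex I, 0.17 (SE 0.20, limma adjusted p = 0.587). Its level was 353, 340, 305, 434 and 396 in WT and 311, 384, 362, 759 and 345 in *SOX2* KO, so that a single embryo, ko4, stood above all others.

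The assembly factors of complex I, which help to build it and are not part of the finished enzyme, had a median of -0.32, with 7 of 8 below 0, and of -0.19 without nc2. *NDUFAF1*, a chaperone of the membrane arm intermediate, was at 90.8, 154, 81.5, 84.7 and 89.7 in WT and at 50.1, 56.8, 55.8, 88.7 and 57.7 in *SOX2* KO. Apart from ko4, the *SOX2* KO embryos lay below every WT embryo. The log2 fold change was -0.67 (SE 0.22, limma adjusted p = 0.0475), just inside the threshold. DESeq2 and edgeR on the recovered reads also called it lower. With other settings its adjusted p ranged from 0.0137 to 0.484, and the call held in 9 of 23 of them. Leaving out 1 embryo ended the call in 8 of 10 cases, the exceptions being nc3 and ko4. With the *RN18S1* share as a covariate the adjusted p was 0.484, and in that fit 104 genes of the whole table passed lower and 149 higher, in place of 641 and 2081.

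*NDUFAF2*, another assembly factor, was at 25.2, 53.4, 30.8, 43.5 and 38.4 in WT and 31.2, 35.7, 40.7, 47.6 and 51.9 in *SOX2* KO. It was the 1 assembly factor with a fold change above 0, at 0.13 (SE 0.26, limma adjusted p = 0.757), well within the spread between embryos.

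Complex II, succinate dehydrogenase, also serves the citric acid cycle and is the complex without subunits from mitochondrial DNA. All 4 genes had a fold change below 0, with a median of -0.29. *SDHD*, a membrane anchor, stood at 843, 1140, 515, 1068 and 724 in WT and 482, 527, 508, 866 and 405 in *SOX2* KO. Here nc3 lay among the *SOX2* KO embryos and ko4 among the WT embryos. Its log2 fold change of -0.62 (SE 0.21) missed the threshold by limma (adjusted p = 0.0596), while edgeR called it lower and DESeq2 did not. *SDHC*, the other anchor, was at 533, 632, 363, 719 and 568 in WT and 340, 561, 450, 483 and 274 in *SOX2* KO, giving a log2 fold change of -0.43 (SE 0.20, limma adjusted p = 0.149).

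The catalytic subunits of complex II were closer to equality. *SDHA*, which binds FAD and oxidizes succinate, was at 855, 1013, 685, 755 and 730 in WT and 586, 746, 690, 872 and 717 in *SOX2* KO, with a log2 fold change of -0.16 (SE 0.15). *SDHB*, the iron-sulphur subunit, was at 643, 654, 431, 659 and 558 and at 418, 547, 569, 684 and 476, with a log2 fold change of -0.13 (SE 0.17). Both intervals lay within 1.5-fold.

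Complex III passes electrons from ubiquinol to cytochrome c. Its 9 genes had a median log2 fold change of -0.06, and 7 were below 0. No direction can be read from this median, which was 0.03 without ko1, -0.01 without ko2 and -0.00086 without nc2, and -0.26 without ko4, -0.15 without nc3 and -0.11 without nc1. *UQCRFS1*, the Rieske iron-sulphur protein, had the lowest value at -0.37 (SE 0.19, limma adjusted p = 0.187), from 1152, 1180, 682, 1432 and 984 in WT and 773, 809, 824, 1145 and 604 in *SOX2* KO. The low WT embryo was again nc3 and the high *SOX2* KO embryo again ko4. *UQCR10*, a small structural subunit, was at 919, 921, 772, 768 and 796 in WT and 636, 842, 937, 1050 and 820 in *SOX2* KO, with a log2 fold change of 0.02 (SE 0.15).

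Complex IV, cytochrome c oxidase, had a median of -0.08 over 16 genes, with 11 below 0 and 5 above. It was -0.02 without nc2, -0.03 without nc4, -0.16 without nc3, -0.14 without ko4 and -0.12 without ko3. *COX8A*, a small subunit, was the lowest at -0.36 (SE 0.16, limma adjusted p = 0.129). Its level was 3104, 3451, 2771, 2989 and 2765 in WT and 1917, 2340, 2421, 2904 and 2202 in *SOX2* KO. Of the *SOX2* KO embryos, ko4 alone reached the WT range. *NDUFA4*, named for complex I but a component of complex IV, was at 2989, 2994, 2699, 3030 and 3241 in WT. In *SOX2* KO it was at 2519, 2821, 3158, 5562 and 2713, a log2 fold change of 0.10 (SE 0.20), with ko4 above every other embryo.

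Several complex IV subunits exist as a general and a tissue-restricted form. *COX4I1*, the general form of subunit 4, was at 1558, 1832, 1207, 1768 and 1546 in WT and 1207, 1501, 1465, 1674 and 1619 in *SOX2* KO, giving a log2 fold change of -0.08 (SE 0.16). *COX4I2*, the form known from lung and low oxygen, was at 0, 1.48, 0, 0.777 and 0.59 in WT and 6.68, 0, 4.65, 0 and 2.31 in *SOX2* KO. Its log2 fold change of 0.87 (SE 0.62, limma adjusted p = 0.339) was the highest of the 93 members and lay within the spread between embryos, 4 of which had no read.

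*COX7A2*, the general form of subunit 7a, was at 1423, 1836, 1212, 1640 and 1693 in WT and 992, 1169, 1354, 1650 and 1213 in *SOX2* KO, giving a log2 fold change of -0.30 (SE 0.17). *COX7A1*, its heart and muscle form, reached at most 2.97 in WT and 4.11 in *SOX2* KO. *COX7A2L*, a relative that acts in joining complexes III and IV, was at 309, 492, 203, 421 and 333 and at 234, 284, 273, 366 and 228, a log2 fold change of -0.30 (SE 0.20). *COX6B1* lay between 1562 and 2077 in WT and between 1388 and 2001 in *SOX2* KO, and *COX6B2*, its testis form, from 9.92 to 25.9 and from 14.8 to 26.4.

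*COX6A1* lay between 1340 and 2405 in WT and between 1131 and 2019 in *SOX2* KO, with a log2 fold change of -0.29 (SE 0.18). *NDUFA4L2*, a relative of *NDUFA4* known as a target of hypoxia signalling, was at 2.29, 0, 0.994, 0.777 and 0 in WT and 5.57, 1.32, 0, 0 and 1.15 in *SOX2* KO. For *COX4I2*, *COX7A1* and *NDUFA4L2*, the 3 members with a mean under 10, differences were not detectable at this depth. *COX7B2*, a testis form of subunit 7b, was at 26.7, 50.4, 50.7, 50.5 and 31.3 in WT and at 67.9, 56.8, 64.0, 11.5 and 32.3 in *SOX2* KO, where ko4 was the lowest embryo.

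Complex V had a median of -0.13, with 15 of 19 genes below 0. It was -0.04 without nc2, -0.05 without ko1, -0.08 without nc4, -0.23 without nc3 and -0.26 without ko4. The 3 genes *ATP5MC1*, *ATP5MC2* and *ATP5MC3* encode the same mature c subunit of the rotor ring with different import sequences. *ATP5MC1* was at 2116, 2398, 1898, 2196 and 1745 in WT and 1573, 1630, 1628, 2622 and 1697 in *SOX2* KO, giving a log2 fold change of -0.20 (SE 0.17). *ATP5MC2* was at 1394, 2082, 1277, 1877 and 1480 and at 1289, 1343, 1529, 2151 and 1582, a log2 fold change of -0.04 (SE 0.18). *ATP5MC3* was at 3852, 5816, 2941, 5111 and 4426 and at 2853, 3338, 3497, 4600 and 2669, with the lowest fold change of these c subunit genes, -0.37 (SE 0.21, limma adjusted p = 0.217). How the counting shared reads among such relatives and their pseudogenes is not given in the sources used here, so single values of gene families are uncertain.

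The extremes of complex V were a low gene and a small subunit. *ATP5S*, the coupling factor now named *DMAC2L*, was at 27.5, 29.7, 29.8, 55.2 and 31.3 in WT and 22.3, 19.8, 15.1, 20.5 and 35.7 in *SOX2* KO. Its log2 fold change was -0.60 (SE 0.31, limma adjusted p = 0.181), and ko5 lay within the WT range. *ATP5MPL*, now *ATP5MJ*, was at 1092, 1495, 1028, 1202 and 1176 and at 975, 1087, 1384, 1616 and 1293, a log2 fold change of 0.07 (SE 0.17).

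Summed over all 93 members, the level was 84149, 104045, 68218, 95710 and 81159 normalized read counts in WT, a mean of 86656 ± 13791 (SD, n = 5). In *SOX2* KO it was 62794, 72822, 78152, 104639 and 71841, a mean of 78050 ± 15856 (SD, n = 5). The ratio of the means was 0.901, and the spread within either group was larger than the difference. As a share of the reads other than *RN18S1*, the members took 3.35% to 4.39% in the WT group and 3.05% to 4.35% in the *SOX2* KO group. By complex, the ratio of mean sums was 0.908 for I, 0.805 for its assembly factors, 0.795 for II, 0.943 for III, 0.918 for IV and 0.884 for V. The groups overlapped in each of these sums.

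**Figure D2:**
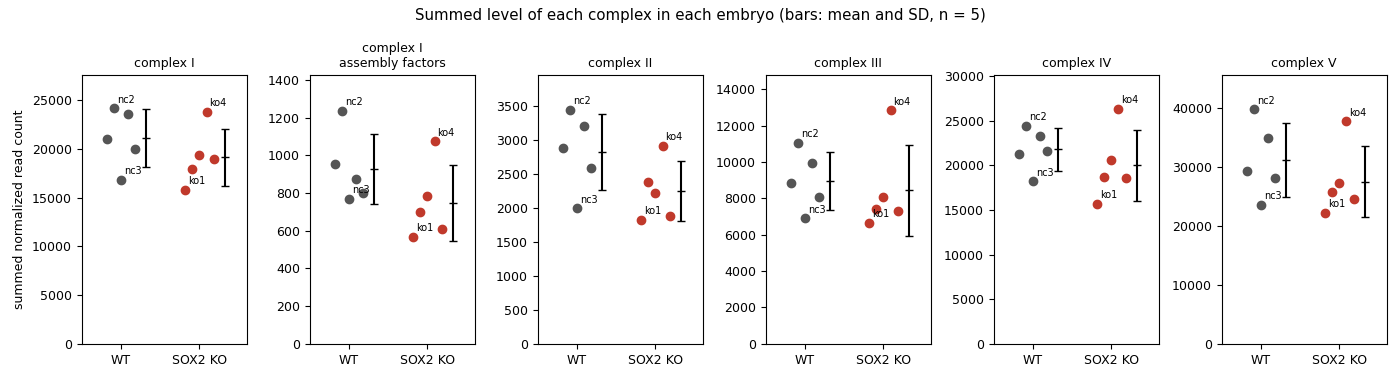
Summed normalized read count of the members of each complex (vertical axes, from 0) in each embryo of the WT (grey) and *SOX2* KO (red) groups, with the mean and SD of the 5 embryos beside the points. The groups overlap in every panel, and ko4 is the highest *SOX2* KO embryo in every panel, at 12841 for complex III against 6644 to 8049 in the other *SOX2* KO embryos.

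The same few embryos were the highest or the lowest for most members. Of the 5 WT embryos, nc2 was the highest for 59 of the 93 members (63.4%), whereas it was the highest for 28.2% of the genes averaging at least 100. The lowest was nc3, for 62 members (66.7%, against 37.5%). In *SOX2* KO, ko4 was the highest for 72 members (77.4%, against 44.7%) and ko1 the lowest for 57 (61.3%, against 28.3%). The median log2 deviation of the members from their group mean was -0.01, 0.24, -0.29, 0.17 and -0.07 in nc1 to nc5 and -0.28, -0.09, 0.03, 0.39 and -0.08 in ko1 to ko5. These are descriptions of 10 embryos and were not tested.

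**Figure D3:**
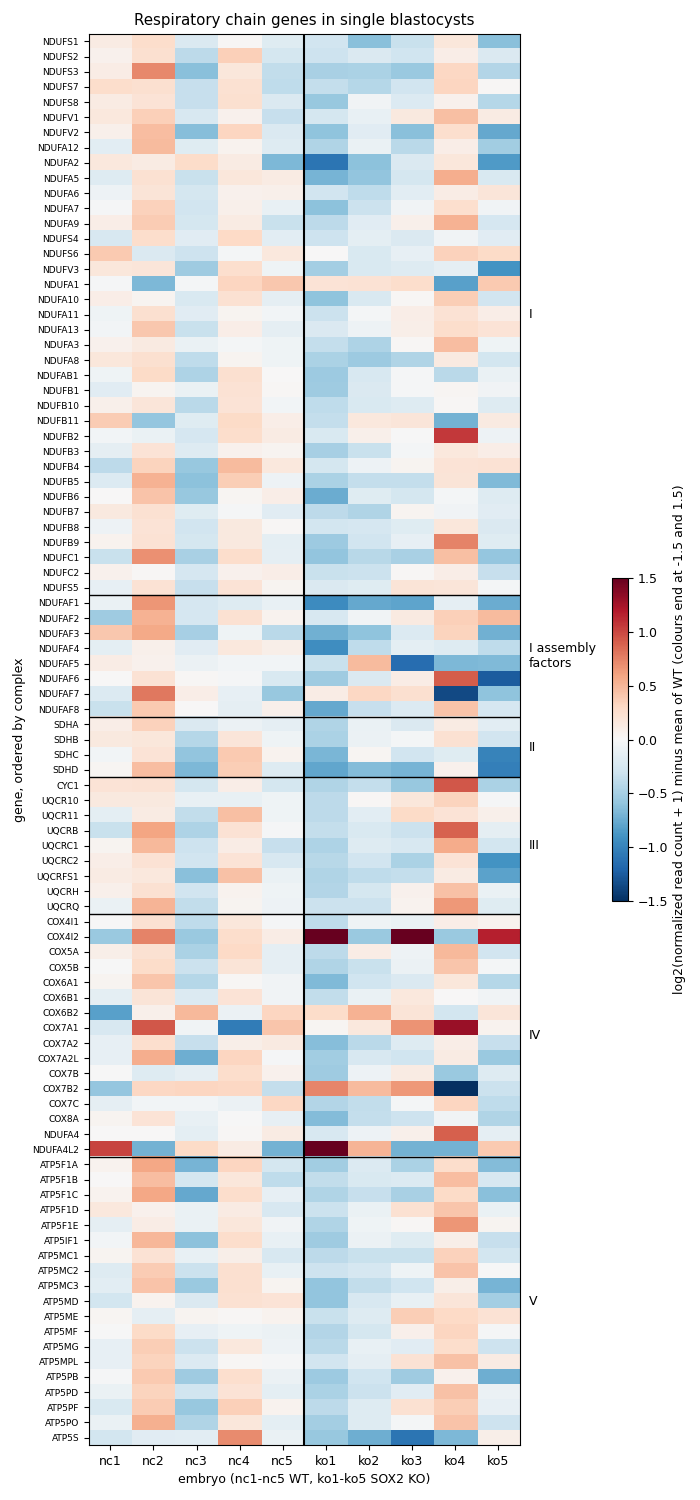
Log2(normalized read count + 1) of each member (rows, by complex) in each embryo (columns), minus the mean of the 5 WT embryos; colours end at -1.5 and 1.5. Columns nc2 and ko4 are mostly red and nc3 and ko1 mostly blue across the complexes, and the strongest single colours belong to genes with few reads such as *COX4I2* and *NDUFA4L2*.

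The level of ko4 stood out most in complex III. Divided by the mean of the other 4 *SOX2* KO embryos, it had a median of 1.63 over the 9 genes of that complex, with a range of 1.17 to 2.62, against a median of 1.40 over all members. For *CYC1*, the cytochrome c1 of complex III, ko4 was at 1893 and the other *SOX2* KO embryos at 671 to 775. For *UQCRB*, a subunit near the ubiquinone site, ko4 was at 2512 against 1066 to 1240. *CYCS*, cytochrome c itself and not a member, was at 2840 in ko4 against 823 to 1159 in the other *SOX2* KO embryos and 1139 to 1430 in WT. These genes were chosen after their values were seen. Without ko4, 9 members passed as lower in place of 1: *NDUFAF1*, *SDHD*, *NDUFS1*, *NDUFA2*, *NDUFA8*, *CYC1*, *UQCRC2*, *COX8A* and *ATP5PB*. Over the whole table, the genes called lower went from 641 to 1063 without ko4. Without nc3, 6 members and 806 genes of the whole table passed as lower. Without any other single embryo 0 members and 325 to 604 genes did.

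A small group of members went the other way in nc2 and ko4. *NDUFA1*, *NDUFB11* and *COX7B* were the lowest of their group in both of these embryos, and they were the only such members, 3 of 93 (3.23%), whereas 7.32% of the genes averaging at least 100 had this pattern. In mammals all of these genes lie on the X chromosome. *NDUFA1*, a membrane arm subunit needed for assembly of complex I, was at 794, 504, 786, 1007 and 1066 in WT and 931, 935, 967, 458 and 1057 in *SOX2* KO. *NDUFB11*, also of the membrane arm, was at 783, 402, 532, 738 and 644 in WT and 469, 672, 683, 370 and 664 in *SOX2* KO.

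*COX7B*, a small subunit of complex IV, was at 1419, 1250, 1302, 1706 and 1488 in WT and 985, 1346, 1548, 968 and 1250 in *SOX2* KO. Against the mean of the other 4 embryos of the group, nc2 and ko4 had 0.552 and 0.471 of the level of *NDUFA1*, 0.596 and 0.594 of *NDUFB11* and 0.846 and 0.755 of *COX7B*. *NDUFA1* made up 2.09% and 1.93% of the summed complex I reads in nc2 and ko4, and 3.79% to 5.88% in the other 8 embryos. *NDUFB11* made up 1.66% and 1.55%, against 2.96% to 3.76%. The sums of complexes I and IV were the highest of their group in nc2 and ko4. The 3 genes were chosen for low counts in these embryos, so low percents were partly built in.

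The same embryos were lowest for *XIST*, the RNA that coats the inactive X chromosome. Its normalized read count was 1819, 11.9, 2326, 429 and 2144 in WT and 2819, 2251, 1804, 33.7 and 1267 in *SOX2* KO, and nc2 and ko4 held 8 and 41 of its reads. *SLC25A5*, an X-linked ADP/ATP carrier that is not a member, was at 5655 in nc2 and 2836 in ko4, 0.672 and 0.441 of the mean of the other 4 embryos. It did not pass the test (limma adjusted p = 0.155) and was named outside the rule, for its values in these embryos. The low values fell on 1 embryo in each group, and the fold changes between groups were 0.05 (SE 0.22) for *NDUFA1*, -0.12 (SE 0.20) for *NDUFB11* and -0.25 (SE 0.16) for *COX7B*, none past the threshold by limma. The pattern was noticed in these values and was not tested, and the labels give no sex for any embryo.

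**Figure D4:**
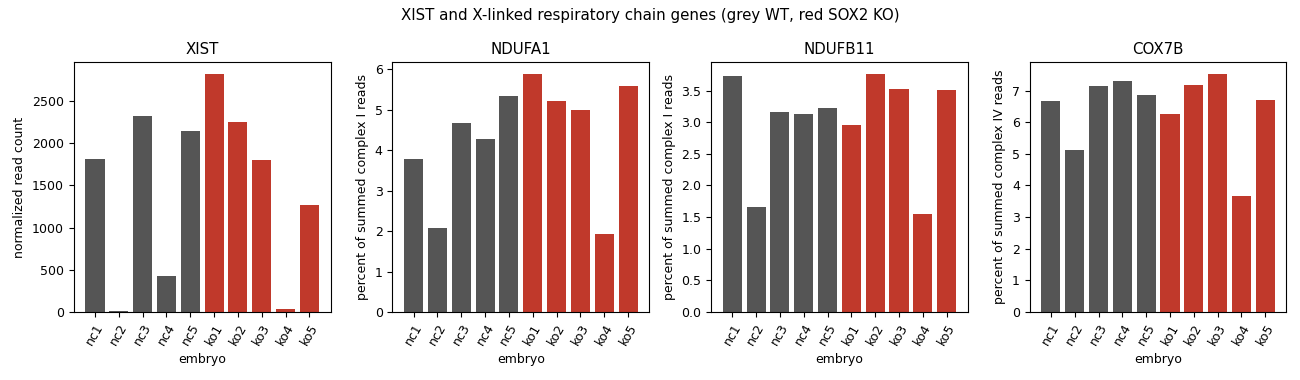
Normalized read count of *XIST* and the percent of the summed reads of their complex taken by *NDUFA1*, *NDUFB11* and *COX7B* (vertical axes, from 0) in each embryo (horizontal axis; grey WT, red *SOX2* KO). Embryos nc2 and ko4 are the lowest of the 10 in every panel, with 11.9 and 33.7 normalized read counts of *XIST*. The genes were chosen for low counts in these embryos, whose complex sums are high, so low percents are partly built in. By its own count, *COX7B* in ko1 and ko5 lies below nc2.

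Other mitochondrial genes were read for comparison, from lists of general knowledge. Electron carriers and ubiquinone synthesis genes had a median log2 fold change of -0.11 over 12 genes, with 0 called by limma and 3 lower at an unadjusted p under 0.05. DESeq2 and edgeR each called 1 of them lower, *COQ7*, a hydroxylase of ubiquinone synthesis. The 13 citric acid cycle genes had a median of -0.15 and 0 calls by limma, DESeq2 or edgeR, with 2 lower and 1 higher at an unadjusted limma p under 0.05. Among 36 assembly factors of the other complexes and further factors of complex I the median was -0.20. By limma 0 of these 36 were lower and 1 (2.78%) was higher, where 10.4% of all genes tested were higher. Among genes averaging at least 10, 5.51% were lower and 7.52% higher. Of the 36, 31 had a fold change below 0. At an unadjusted limma p under 0.05, 7 (19.4%) were lower and 1 higher, where 13.9% of genes averaging at least 10 were lower. In this list *PET100*, a complex IV assembly factor, was higher, from 136 to 171 in WT to 158 to 280 in *SOX2* KO (log2 fold change 0.54, SE 0.17, limma adjusted p = 0.0458), a call that DESeq2 made too and edgeR did not.

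Genes that serve expression of the mitochondrial genome were among the calls. Of 78 mitochondrial ribosome genes, 3 (3.85%) fell and 0 rose by limma. Among all genes averaging at least 100, 8.16% fell and 6.62% rose. The 78 genes had a median of -0.26, and DESeq2 called 4 of them lower and edgeR 7. At an unadjusted limma p under 0.05, 20 of them (25.6%) were lower and 1 higher, where 19.9% of all genes averaging at least 100 were lower. *MRPL3* was at 241, 271, 219, 261 and 254 in WT and 167, 141, 191, 185 and 141 in *SOX2* KO, without overlap (log2 fold change -0.60, SE 0.16, limma adjusted p = 0.0169). *MRPS7* fell by 0.66 and *MRPL49* fell by 0.80 on the log2 scale (limma adjusted p = 0.0335 and 0.0291). Among 15 regulators of mitochondrial biogenesis 2 (13.3%) fell and 0 rose, where 3.2% of all genes tested fell and 10.4% rose. Among genes averaging at least 10, 5.51% fell and 7.52% rose. At an unadjusted limma p under 0.05, 5 of the 15 regulators were lower and 2 higher. *TFAM*, which packages and transcribes mitochondrial DNA, was at 317, 463, 331, 480 and 410 in WT and 287, 280, 306, 288 and 220 in *SOX2* KO, with no overlap (log2 fold change -0.52, SE 0.16, limma adjusted p = 0.0377).

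*TFB2M*, a transcription factor of the same genome, lay between 125 and 204 in WT and between 81.9 and 136 in *SOX2* KO (log2 fold change -0.66, SE 0.19, limma adjusted p = 0.0292). Of 24 import genes 1 (4.17%) fell and 0 rose, where 3.2% of all genes tested fell and 10.4% rose. Among genes averaging at least 10, 5.51% fell and 7.52% rose, and among those averaging at least 100, 8.16% fell and 6.62% rose. At an unadjusted limma p under 0.05, 4 of the import genes were lower and 2 higher. The import gene called was *TIMM8A*, a chaperone of the intermembrane space, with a log2 fold change of -0.65 (SE 0.19, limma adjusted p = 0.0284). It was at 293, 191, 277, 291 and 270 in WT and 144, 193, 238, 122 and 159 in *SOX2* KO, and this gene, X-linked in mammals as well, was again lowest in nc2 and ko4. Whether the lists differ from each other was not tested, and neither was their difference from other genes.

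Of 7 carriers of nucleotides, phosphate and protons, 1 rose and 1 fell (14.3% each), where 10.4% of all genes tested rose and 3.2% fell. Among genes averaging at least 10, 7.52% rose and 5.51% fell. *UCP2*, an inner membrane carrier of the uncoupling protein family, was at 41.2, 17.8, 55.7, 161 and 75.6 in WT and 244, 494, 315, 540 and 277 in *SOX2* KO. Every *SOX2* KO embryo lay above every WT embryo, with a log2 fold change of 2.67 (SE 0.38, limma adjusted p = 0.000218). *SLC25A31*, a testis form of the ADP/ATP carrier, fell, from 2.29 to 9.94 in WT to at most 2.23 in *SOX2* KO, with 0 reads in 3 of the 5 *SOX2* KO embryos (limma adjusted p = 0.0226). For this gene of few reads, edgeR also made the call and DESeq2 did not.

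**Figure D5:**
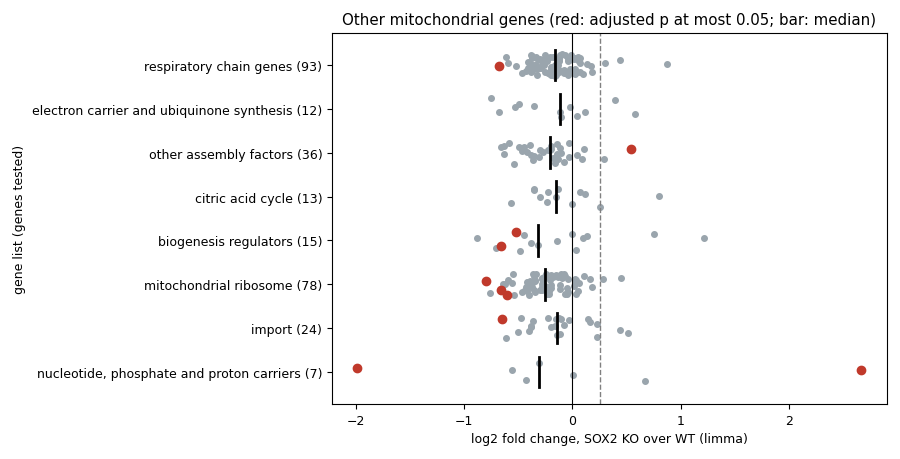
Log2 fold change, *SOX2* KO over WT (horizontal axis), of each gene in the respiratory chain set and in 7 other mitochondrial lists (vertical axis, numbers of genes in brackets). Red points have an adjusted p of at most 0.05 by limma, black bars are the medians of the lists, and the dashed line is the median of all genes tested (0.25); the bars lie between -0.31 and -0.11, and *UCP2* at 2.67 is the point farthest right.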

How the data were processed

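Per the labels and the methods of the study, the Smart-seq2 reads of single embryos were trimmed (Trimmomatic), aligned to the assembly ARS-UCD1.2 (HISAT2) and counted per gene (featureCounts). The authors deposited a normalized signal, the counts divided by the DESeq2 size factor of each embryo. The annotation release and the strand setting are not given in the sources used here. Within each embryo, all values (201120 in all, 100%) were whole multiples of a common step within a relative tolerance of 1e-06, so reads were recovered. The reads carry no molecular identifiers, so counts measure reads and not molecules.

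Groups follow the names of the columns. The *SOX2* KO columns carry no replicate number of the labels. Replicates are single embryos, and the labels name no batch, sire or day.

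The test was limma 3.58.1 (lmFit, eBayes with trend, R 4.3.3) on log2(normalized read count + 1), for 20056 genes with a mean of at least 1, without covariates, with Benjamini-Hochberg adjustment. DESeq2 1.42.0 and the edgeR 4.0.16 quasi-likelihood test were run on recovered reads. Other alternatives were pseudocounts of 0.1 and 5, equal totals, median-ratio and quantile scaling, minimum means of 10 and 100, and leaving out each embryo. Leaving out nc2 and ko4 together and covariates for *XIST* and the *RN18S1* share were added after the data were seen. The test was also run on simulated data.

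The members and all lists were chosen with earlier results of these data known. Members were named where they passed the test, had the lowest or highest fold change of their complex among genes averaging at least 10, encode complex II or are tissue-restricted isoforms and paralogs, and genes of the other lists where they passed. The X-linked members and those singled out for ko4 or for alternative fits were chosen after their values were seen. So were *SLC25A5* and *CYCS*, which are not members and did not pass by limma, DESeq2 or edgeR. Of the 93 symbols, 90 matched RefSeq symbols and 3 matched as synonyms. Coordinates and sequences are not given, because the reference at hand is of another assembly, ARS-UCD2.0. The genotypes of the embryos were not analysed here.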

Additional observations from a re-analysis of the deposited data

Results flagged for a closer look

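Single embryos that stood far from the other 4 of their group were searched with Dixon's ratio of gap to range in the named members and the complex sums. It marked 11 of 74 groups of 5 embryos, where chance marks about 1 in 20 groups of genes chosen without their values. Some of these genes were named for their fold change, and *NDUFA1*, *NDUFB11* and *COX7B* for low values in nc2 and ko4, and the groups share embryos, so that rate is no measure of chance here. Most lie on ko4. It stood high for *NDUFA4* (5562 normalized read counts, the others 2519 to 3158), *ATP5MC1* (2622, the others 1573 to 1697), *NDUFB2* (759, the others 311 to 384), *SDHD* (866, the others 405 to 527), *NDUFAF1* (88.7, the others 50.1 to 57.7) and the sum of complex III (12841, the others 6644 to 8049). It stood low for *NDUFA1* (458, the others 931 to 1057). Among the other *SOX2* KO embryos, ko1 stood high for *NDUFA4L2* (5.57, the others 0 to 1.32), a difference of a few reads. In WT, nc2 stood high for *NDUFAF1* (154, the others 81.5 to 90.8), nc4 for *ATP5S* (55.2, the others 27.5 to 31.3), and nc5 stood low for *NDUFA2* (102, the others 176 to 197). The causes were not tested.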

How the results depend on the processing

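The count of members called lower was 1 as reported (*NDUFAF1*) and ran from 0 to 9 when each embryo was left out in turn, with 9 without ko4 and 6 without nc3. It was 0 with pseudocounts of 0.1 or 5, with median-ratio or quantile scaling, with minimum means of 10 or 100 and with the *RN18S1* share as a covariate. *NDUFAF1*, with a mean of 81.0, was not tested at the minimum mean of 100, so its absence there was fixed in advance. The count was 2 (*NDUFAF1* and *SDHD*) with equal totals, with or without *RN18S1* in them, with edgeR, with log2 *XIST* as a covariate and without nc2 and ko4. DESeq2 and no filter on the mean gave 1. In each of the 24 alternatives the count of members called higher, and of members called with a 2-fold change, was 0. No result turned its direction while called. The cause was not tested.

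The median log2 fold change of complex IV was -0.20 with equal totals and -0.08 as reported. Scaling also moved the median over all genes, which was 0.25 as reported, 0.14 with equal totals, 0.34 with median-ratio scaling and -0.02 with quantile scaling. The members' median was -0.28, -0.05 and -0.11 under these 3, and -0.01 with the *RN18S1* covariate. Of 709 alternative values of the 30 named members, 684 kept their side of the threshold, 11 gained a call and 14 lost one. Another 51 values in 17 uncalled members changed sign. No paired analysis was possible because the labels' replicate numbers cannot be tied to single *SOX2* KO columns.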
